A study of Homo sapiens with 6 samples.

Results

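The genes described here repair single damaged bases, mispaired bases, bulky lesions and broken ends, or copy past damage, and they were followed in hTert-HME1, a human mammary epithelial line immortalised with telomerase. They are 43 genes named by symbol in 5 repair pathways, and a gene counted as measured where the mean of 2 raised to its value over the 6 libraries was at least 10. By that rule 42 of 43 passed, against 14763 of 57820 gene rows in all. MLH3 lay just inside, at a mean of 10.98, and the gene that failed, NHEJ1, lay far below at 1.42. The libraries hold messenger RNA from cells transfected with an siRNA and kept in a mammary epithelial growth medium. Cells labelled BRCA2-2, an siRNA against the homologous recombination gene BRCA2, were grown without EGF to passage 6 (2 libraries, replicates A and B) or with EGF at passage 4 (1 library). Cells labelled control-1, a control siRNA, were all grown with EGF, at passage 6 (2 libraries, controls A and B) and passage 4 (1 library, control P4). All cells carry the telomerase transgene, and each target is represented by the libraries of a single siRNA.

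Mismatch repair recognises mispaired bases and small loops left by replication through MutS proteins and passes them to MutL proteins for removal of the new strand. Base excision repair removes oxidised, deaminated or alkylated bases with glycosylases and closes the gap by nuclease, polymerase and ligase steps, whereas nucleotide excision repair cuts out a stretch of the strand around bulky lesions such as those from ultraviolet light. End joining ligates broken ends, by the Ku and DNA-PK route or by polymerase theta, and translesion polymerases copy past damage that stops the replicative enzymes. In cells short of BRCA2, PARP1 and polymerase theta are known as enzymes on which survival can come to depend.

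Values are the authors' normalised log2 values, and their sequencing depth is unknown. The targeted gene did not bear out the passage 4 labels, since BRCA2 had a log2 value of 10.88 with EGF under the BRCA2 label, against 10.19 in control P4 (difference 0.69, adjusted p = 0.136, limma). Among libraries with the control label BRCA2 was higher by 1.05 at passage 6 than at passage 4 (adjusted p = 0.0235, limma). At passage 6 BRCA2 had 11.15 and 10.89 in the libraries labelled BRCA2 siRNA, against 11.25 and 11.24 in controls A and B (difference -0.23 ± 0.11, standard error, adjusted p = 0.230, limma). That difference did not pass, so lower BRCA2 RNA under the BRCA2 label was not established at passage 6 either. A list of 22 proliferation genes, such as the MCM helicase, had median differences of 0.83, 1.04 and -0.50 in the same comparisons, in that order. Its part in the BRCA2 values was not tested. Whether the labels of the 2 passage 4 libraries were exchanged was not tested, and directions that rest on either library hold by label only. Controls A and B were far closer to each other than the A and B libraries without EGF: the SD of A minus B over tested genes was 0.308 without EGF, against 0.119 in the controls. Basal keratins were abundant, with KRT5 between 16.81 and 17.86, EPCAM was near 0 (-0.18 to 0.09), and none of 5 haematopoietic markers passed the filter. Fibroblast markers were detected, 8 of 10 passing the filter with COL1A1 between 8.91 and 10.76, and in these bulk samples a smaller share of cells of a type and less RNA per cell cannot be told apart.

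Per length of annotated exon, end-joining and abundant excision genes led the list. On the log2 scale of the value per kb of exon (GENCODE release 29, another annotation than the authors'), XRCC6, the smaller subunit of the Ku ring that binds broken ends, averaged 12.31 over the 6 libraries. RAD23B (11.32), a partner in lesion recognition, APEX1 (11.20), the nuclease that cuts at abasic sites, XRCC5 (11.19), the larger Ku subunit, and PRKDC (11.17), the catalytic subunit of DNA-PK, followed, and the ranges of these 4 over the libraries overlapped. Next stood PARP1 (9.75), a sensor of strand breaks, and CETN2 (9.34), a centrin of the lesion-recognition complex. The glycosylases were spread widely. MBD4 (8.29), UNG (7.95) and TDG (7.91), which remove uracil or mispaired thymine, stood well above OGG1 (4.50), which removes oxidised guanine, NTHL1 (4.71), which removes oxidised pyrimidines, and SMUG1 (5.16), another uracil glycosylase. MLH3, a MutL protein, stood apart at 0.38, at values between 3.24 and 3.70 on the authors' scale. Neighbouring or antisense genes share exon bases with 23 of the 43 genes in that annotation, among them 65.4% of the exon bases of NHEJ1, the XRCC4 partner in ligation, and 63.2% of those of ERCC5 on the same strand. How the authors assigned such reads is not given in the sources used here, and PMS2 has near-identical pseudogene copies, so these levels are uncertain to that extent.

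**Figure D1:**
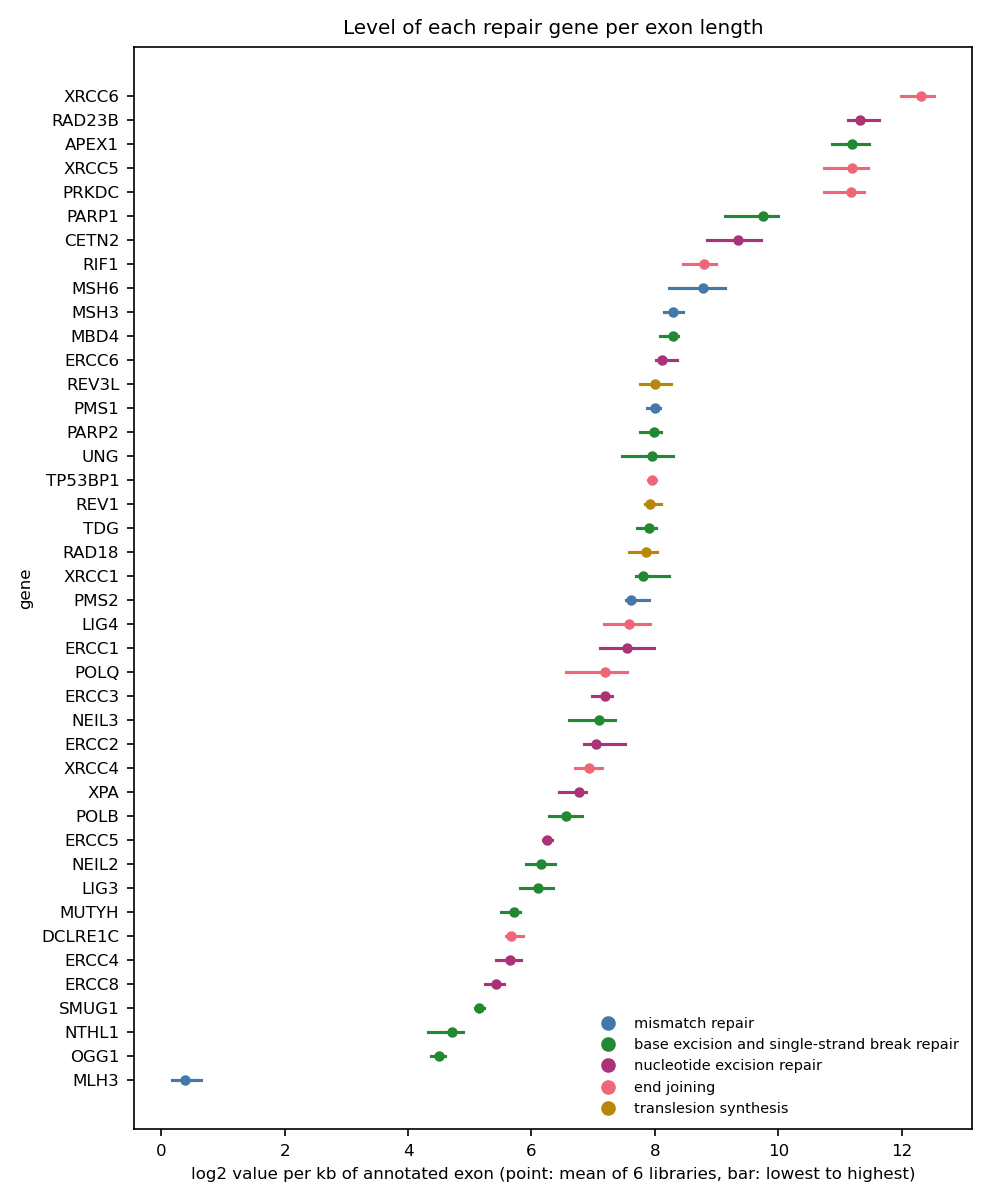
Log2 value per kb of annotated exon of the 42 measured repair genes (points: mean of 6 libraries, bars: lowest to highest library, colours: pathway). XRCC6 leads at 12.31, RAD23B, APEX1, XRCC5 and PRKDC lie between 11.17 and 11.32, and MLH3 lies far below the others at 0.38.

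As a set these genes spanned somewhat less than all genes tested. Over the 6 libraries the median gene spanned 0.47 on the log2 scale, against 0.60 for all genes tested, and the spans ran from 0.13 for TP53BP1, a chromatin reader that protects broken ends from resection, to 0.98 for POLQ, polymerase theta. ERCC5, the nuclease that cuts on the far side of a lesion, and SMUG1 also spanned less than 0.2, whereas 19 of 42 spanned 0.5 or more. Control P4 held the lowest value of 12 genes and the highest of 14 (28.6% and 33.3% of 42), against 23.9% and 31.9% of all genes tested. Replicate B without EGF was the lowest for 13 (31%), against 22.4% of all genes.

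**Figure D2:**
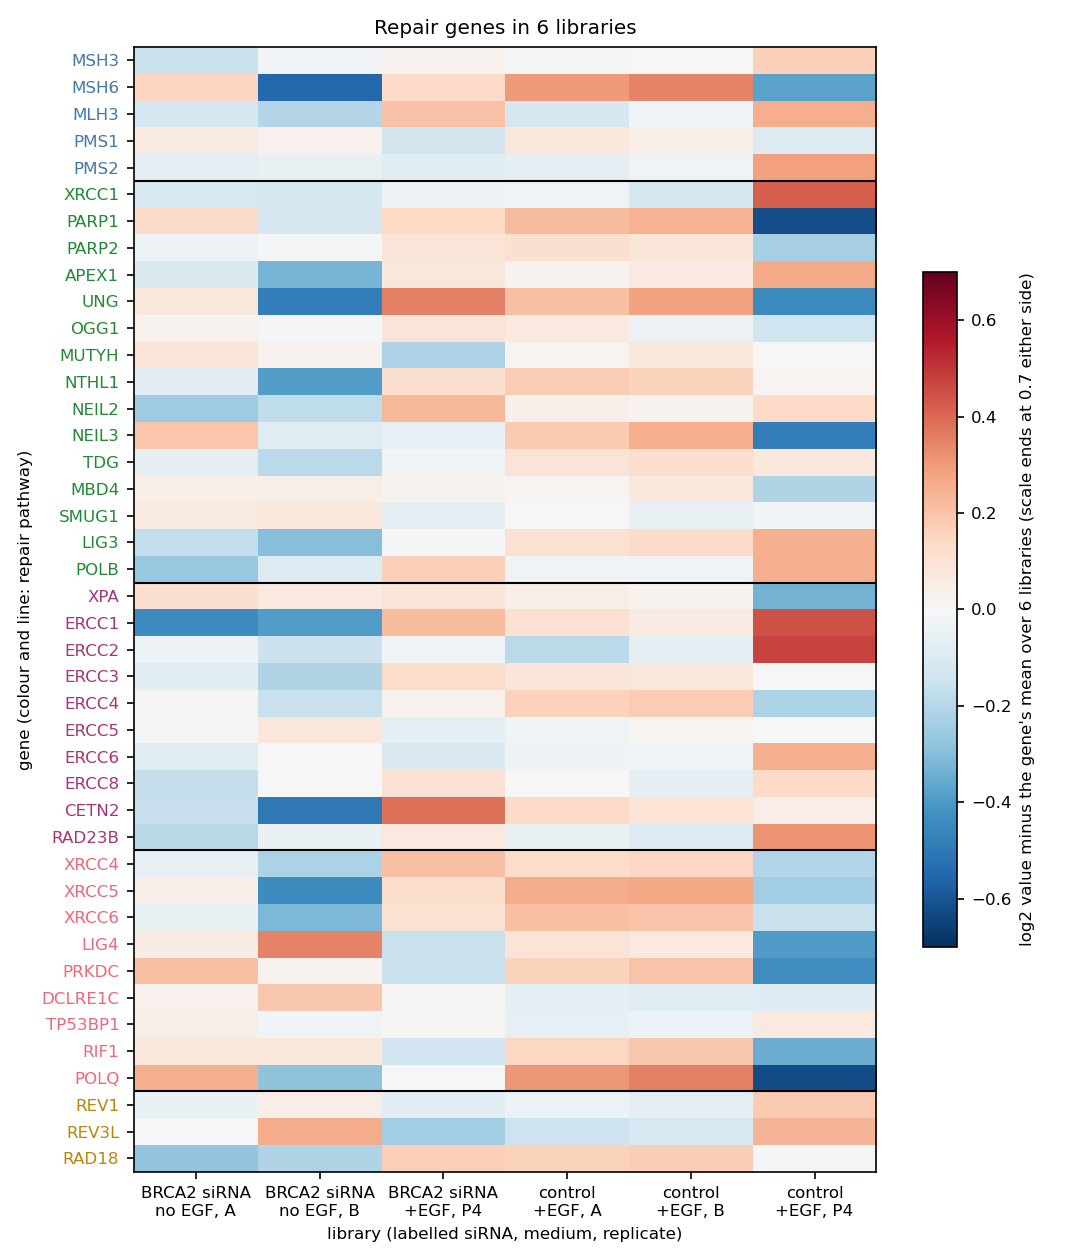
Log2 value of each repair gene minus its mean over the 6 libraries (colour, red high and blue low), with genes in rows by pathway and libraries in columns. ERCC1 is blue in both BRCA2-labelled libraries without EGF (9.59 and 9.64), and PARP1 and POLQ are blue in control P4 (11.97 and 9.80).

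Of the 42 genes, 10 passed the test in at least 1 of 4 comparisons (23.8%, against 31.7% of all genes tested) and 32 in none. The promoters of 5 that carry the results are shown because their genes moved in different libraries: ERCC1, RAD18 and CETN2 were lower without EGF, PARP1 was lowest and XRCC1 highest in control P4. Each is the RefSeq window from 250 bases before to 50 after the annotated start, read 5′ to 3′ on the strand of the gene. Where RefSeq lists several starts (3 for ERCC1) the window with most GENCODE transcript starts was taken. Capitals mark matches, on either strand, to the letters of the CCAAT box (CCAAT) and the GC box (GGGCGG).
ERCC1, GRCh38.p14, chr19:45423479-45423778, minus strand: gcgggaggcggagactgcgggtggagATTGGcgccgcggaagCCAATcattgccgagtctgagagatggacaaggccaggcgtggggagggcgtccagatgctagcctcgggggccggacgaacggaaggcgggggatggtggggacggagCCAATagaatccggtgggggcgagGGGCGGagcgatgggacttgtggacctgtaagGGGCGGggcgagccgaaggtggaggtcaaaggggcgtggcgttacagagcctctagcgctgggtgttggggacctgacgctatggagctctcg
RAD18, GRCh38.p14, chr3:8963423-8963722, minus strand: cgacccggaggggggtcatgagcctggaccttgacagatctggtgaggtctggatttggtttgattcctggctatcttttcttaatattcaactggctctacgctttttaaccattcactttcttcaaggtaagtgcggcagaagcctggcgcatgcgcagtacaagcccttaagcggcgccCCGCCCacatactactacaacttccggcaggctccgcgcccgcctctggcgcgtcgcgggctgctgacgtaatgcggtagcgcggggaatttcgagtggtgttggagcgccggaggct
CETN2, GRCh38.p14, chrX:152830708-152831007, minus strand: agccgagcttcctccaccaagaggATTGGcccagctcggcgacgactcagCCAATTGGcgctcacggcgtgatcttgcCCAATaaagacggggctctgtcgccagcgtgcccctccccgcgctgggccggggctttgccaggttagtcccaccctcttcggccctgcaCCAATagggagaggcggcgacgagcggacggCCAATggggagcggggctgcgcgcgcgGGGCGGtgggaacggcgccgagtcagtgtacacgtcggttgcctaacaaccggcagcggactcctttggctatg
PARP1, GRCh38.p14, chr1:226408044-226408343, minus strand: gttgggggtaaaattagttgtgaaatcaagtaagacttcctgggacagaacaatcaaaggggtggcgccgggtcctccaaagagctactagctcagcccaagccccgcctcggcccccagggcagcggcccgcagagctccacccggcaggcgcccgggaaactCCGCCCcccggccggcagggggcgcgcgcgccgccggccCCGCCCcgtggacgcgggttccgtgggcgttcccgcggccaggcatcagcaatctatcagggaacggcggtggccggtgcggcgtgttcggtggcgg
XRCC1, GRCh38.p14, chr19:43575478-43575777, minus strand: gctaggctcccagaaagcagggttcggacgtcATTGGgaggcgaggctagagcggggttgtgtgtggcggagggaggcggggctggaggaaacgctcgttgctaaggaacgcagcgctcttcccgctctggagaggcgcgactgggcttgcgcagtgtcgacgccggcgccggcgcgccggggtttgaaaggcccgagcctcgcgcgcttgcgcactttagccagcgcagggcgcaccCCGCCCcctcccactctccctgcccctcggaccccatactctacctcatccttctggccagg

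A promoter was matched for 38 of the 43 genes, and POLB, PRKDC, NEIL2, SMUG1 and XRCC5 had no match. At least 1 GC box stood in 32 of 38 windows (84.2%), against 45.1% of 27305 windows, 1 for each gene in the table. The CCAAT letters stood in 22 (57.9%), against 35.7%. The median window had 26 CpG in these genes, against 14 in all windows, and the part of base composition in these shares was not tested. CETN2 had 6 CCAAT matches, 2 of them overlapping on opposite strands, ERCC1 had 3, XRCC1 had 1, and RAD18 and PARP1 had none. The letters TTTNNCGC, a loose form of the E2F motif, stood in 6 windows (15.8%, against 6.93% of all), those of MSH3, MSH6, PMS2, UNG, RAD23B and XRCC6, and TGANTCA, an AP-1 form, in 0 of 38 (7.69% of all). A match is a description of the letters and not a bound site.

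At passage 6, the 2 BRCA2-labelled libraries without EGF were set against controls A and B. ERCC1, the partner of the nuclease ERCC4 that cuts on the near side of a lesion, fell 1.41-fold, and RAD18, the ubiquitin ligase that recruits translesion polymerases to stalled forks, fell 1.33-fold. These were the only 2 of 42 genes past the threshold, an adjusted p below 0.05 over all genes tested, and 0 rose. The share of 4.76% stood beside 6.44% of all genes tested (2.88% lower and 3.56% higher), so the count is not above the background. At an unadjusted p below 0.05 there were 11 of 42, against 31.5% of all genes.

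ERCC1 had log2 values of 9.59 and 9.64 in the BRCA2-labelled libraries without EGF, against 10.14 and 10.09 in controls A and B. It also had 10.25 in the BRCA2-labelled library with EGF and 10.47 in control P4, so both libraries without EGF lay below the other 4. Its difference at passage 6 was -0.50 ± 0.07 (standard error, adjusted p = 0.0328, limma). CD3EAP on the other strand covers 28.6% of the exon bases of ERCC1, and whether strand was used in counting is not given in the sources used here. RAD18 had 10.38 and 10.45 in the BRCA2-labelled libraries without EGF, against 10.82 and 10.83 in controls A and B, with 10.83 in the BRCA2-labelled library with EGF and 10.65 in control P4. Here too the libraries without EGF were the lowest, with a difference of -0.41 ± 0.07 (adjusted p = 0.0450, limma). The RAD18 call is slight: it was lost with libraries centred on their median (adjusted p = 0.0509) and with quantile normalisation (0.0628). The calls of ERCC1 and RAD18 were both lost when the pair of controls was averaged (adjusted p = 0.423 and 0.520), without control A (0.442 and 0.501) and without control B (0.381 and 0.492), at differences between -0.52 and -0.41. They were also lost with no filter on low values (0.0857 and 0.0976) and with passage left out of the model (0.160 and 0.240).

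Base excision genes were lower on balance without any passing. Of 15, 13 lay below 0, with a median of -0.16, against 52.7% below 0 and a median of -0.02 over all genes. LIG3, the ligase that seals single-strand breaks with XRCC1, had 9.62 and 9.50 without EGF, against 9.90 and 9.93 in controls A and B (-0.36 ± 0.08, adjusted p = 0.0681, limma). UNG, the main nuclear uracil glycosylase, had 9.39 and 8.83 without EGF, against 9.52 and 9.59 in controls A and B. Its replicates without EGF were thus farther apart than the nearer of them was from the controls, and its difference of -0.44 ± 0.20 did not pass (adjusted p = 0.20, limma). The scaffold XRCC1 stayed within the spread of its replicates (9.49 and 9.48 without EGF, against 9.58 and 9.48 in controls A and B), as did the adenine glycosylase MUTYH, the thymine glycosylase MBD4 and OGG1. NEIL2, TDG, APEX1, POLB (polymerase beta), PARP2 and NTHL1 had no overlap between the groups and adjusted p between 0.133 and 0.334. Groups without overlap were seen for 66.7% of the 15 base excision genes, against 64.9% of all genes tested. PARP1 had 12.73 and 12.48 without EGF, against 12.81 and 12.84 in controls A and B (adjusted p = 0.222), and SMUG1 had 7.81 and 7.82, against 7.75 and 7.70 (adjusted p = 0.495). NEIL3 overlapped between the groups.

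In mismatch repair all 5 differences lay below 0 (median -0.08), against 52.7% of all genes tested, and 0 passed. MSH6, which recognises single mispairs, had 12.39 and 11.69 without EGF, against 12.54 and 12.59 in controls A and B (-0.52 ± 0.24, adjusted p = 0.209, limma). That value rests largely on replicate B: it was -0.17 without replicate B and -0.87 without replicate A. In the same way XRCC5 was at -0.23 without replicate B and -0.71 without replicate A, and UNG at -0.16 and -0.72. MSH3, the MutS protein for loops, had 10.38 and 10.51 without EGF, against 10.52 and 10.53 in controls A and B, and PMS1 and PMS2, both MutL proteins, overlapped between the groups. MLH3 had 3.32 and 3.24, against 3.33 and 3.43 (adjusted p = 0.596).

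Nucleotide excision genes apart from ERCC1 did not pass, and 7 of 10 lay below 0, against 52.7% of all genes tested. CETN2 had 10.13 and 9.79 without EGF, against 10.42 and 10.38 in controls A and B (adjusted p = 0.101, limma). The helicase subunit ERCC3 had 10.18 and 10.05, against 10.35 and 10.34, and the nuclease ERCC4, the partner of ERCC1, had 8.75 and 8.58, against 8.90 and 8.91 (adjusted p = 0.139 and 0.162). The other helicase subunit, ERCC2, the transcription-coupled factors ERCC6 and ERCC8, ERCC5 and RAD23B overlapped between the groups. XPA, which verifies the damage, had 7.76 and 7.72 without EGF, against 7.69 and 7.67 in controls A and B, without passing (adjusted p = 0.673).

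In end joining 6 of 9 measured genes lay below 0, against 52.7% of all genes tested, and none passed. XRCC5 had 13.67 and 13.20 without EGF, against 13.90 and 13.91 in controls A and B (-0.47 ± 0.17, adjusted p = 0.145, limma), and XRCC6 had 13.98 and 13.71, against 14.24 and 14.23 (adjusted p = 0.0959). Both Ku subunits were lower in each library without EGF than in either control, as were 35.7% of all genes tested. PRKDC had 15.33 and 15.14 without EGF, against 15.27 and 15.32 in controls A and B, and overlapped. The ligase LIG4 also overlapped, whereas the nuclease Artemis (DCLRE1C) had 8.36 and 8.52, against 8.27 and 8.26 (adjusted p = 0.268). POLQ had 10.67 and 10.14 without EGF, against 10.73 and 10.78 in controls A and B (adjusted p = 0.265). XRCC4, the scaffold of LIG4, had 8.29 and 8.13, against 8.47 and 8.49 (adjusted p = 0.137). TP53BP1 (difference 0.06) and RIF1 (-0.09) did not pass either. Of the translesion polymerases, REV3L, the catalytic subunit of polymerase zeta, had 11.64 and 11.90 without EGF, against 11.50 and 11.53 in controls A and B (adjusted p = 0.190), and REV1 overlapped.

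Over all 42 genes the median difference was -0.09 and 32 lay below 0 (76.2%, against 52.7% of all genes tested). Groups that did not overlap were seen for 27 of them (64.3%), against 64.9% of all genes tested. By direction, 5 of 42 lay higher without overlap (11.9%, against 29.2% of all genes) and 22 lay lower (52.4%, against 35.7%). The list of 22 proliferation genes had a median difference of -0.50 in the same comparison, with 21 below 0 and 0 past the test. Its median level was 11.60 in replicate A and 11.27 in replicate B without EGF, against 11.85 and 11.88 in controls A and B. The log2 summed level of the list was 17.48 and 17.16, against 17.48 and 17.55, so replicate A lay close to control A by that measure. Fibroblast markers were higher, with 5 of 8 past the test and a log2 summed level of 12.75 and 12.79 without EGF, against 11.13 and 11.36 in controls A and B. Mammary epithelial markers moved too, with 4 of 8 higher, among them CDH1 (2.27) and KRT17 (1.52), and KRT18 lower (-0.85). Of the 2 endothelial markers that passed the filter, KDR was higher (1.23, adjusted p = 0.0248, limma). The part of these lists in the repair genes was not tested, and siRNA and medium differ together here and cannot be told apart.

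**Figure D3:**
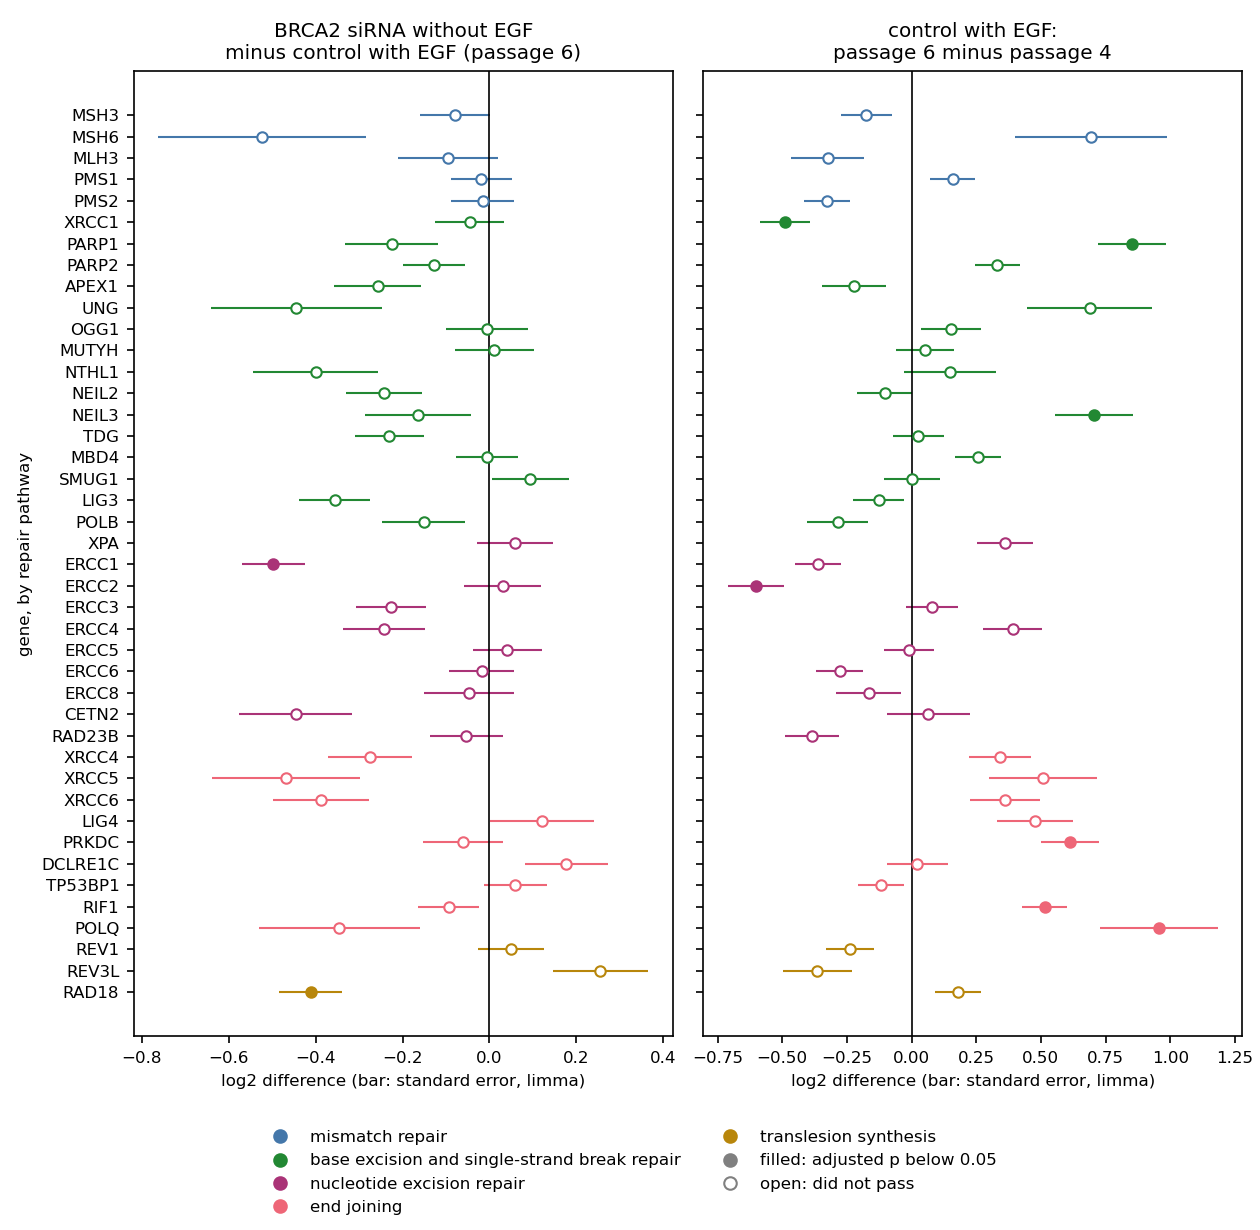
Log2 difference of each measured repair gene with its standard error (limma), at passage 6 between the BRCA2-labelled libraries without EGF and the controls with EGF (left) and between passage 6 and passage 4 controls (right). Filled points passed an adjusted p of 0.05: ERCC1 and RAD18, both below 0, on the left, and 5 genes above and 2 below 0 on the right.

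Within the BRCA2 label, libraries without EGF were set against the library with EGF, so that medium and passage differ together. Of 42 genes, 3 fell and 0 rose (7.14%, against 16.3% of all genes tested, 8.89% lower and 7.41% higher), and 9 of 42 had an unadjusted p below 0.05, against 37.3% of all genes. CETN2, at 10.13 and 9.79 without EGF, was at 10.67 in the BRCA2-labelled library with EGF, the highest of the 6 libraries (-0.72 ± 0.16, adjusted p = 0.0475, limma). ERCC1 was lower by -0.64 ± 0.09 (adjusted p = 0.0241), and RAD18 by -0.41 ± 0.09 (adjusted p = 0.0438). This comparison shares the libraries without EGF with the first, so its values for ERCC1 and RAD18 are no independent support. With libraries centred on their median the calls of CETN2 and RAD18 were lost (adjusted p = 0.0565 and 0.0566), and all 3 were lost with controls A and B averaged (ERCC1 at 0.153), with no filter on low values (0.0647) and with passage left out of the model (0.251).

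No other repair gene passed here. NEIL2, a glycosylase for oxidised bases in single-stranded stretches, had 7.66 and 7.73 without EGF, against 8.14 in the BRCA2-labelled library with EGF, and did not pass (adjusted p = 0.0538, limma). UNG, at 9.66 in the library with EGF, lay above both libraries without EGF (9.39 and 8.83) and did not pass either (adjusted p = 0.173). LIG4 (9.76 and 10.06 without EGF, against 9.55) and REV3L (11.64 and 11.90, against 11.40) were higher without EGF, with adjusted p of 0.153 and 0.121. The proliferation list had a median difference of -0.27 here, with 0 of 22 past the test, whereas 4 of 8 fibroblast and 4 of 8 mammary epithelial markers rose and 1 of each list fell (DCN and KRT18). Their part in the repair genes was not tested.

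At passage 4 the BRCA2-labelled library with EGF was set against control P4, 1 library against 1, with the spread taken from the passage 6 groups. By limma 0 of 42 repair genes and 0 of 14763 genes passed (0%), and 10 of 42 and 3436 genes (23.3%) had an unadjusted p below 0.05. PARP1 had 12.73 in the BRCA2-labelled library, against 11.97 in control P4 (0.76 ± 0.15, adjusted p = 0.127). XRCC1 had 9.56, against 10.02 in control P4, and ERCC2 had 9.70, against 10.21 (adjusted p = 0.138 and 0.143). The end-joining genes lay above 0 in 8 of 9 cases, with a median of 0.26, whereas 54.3% of all genes tested lay below 0 (median -0.04). In the other pathways 8 of 15 base excision, 4 of 10 nucleotide excision, 1 of 5 mismatch and 1 of 3 translesion genes lay above 0. Of 22 proliferation genes 21 lay above 0 (median 0.83). In a pair of single libraries whose labels BRCA2 did not bear out, these are values of the libraries and not of the siRNA.

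Among the libraries labelled control siRNA, controls A and B at passage 6 against control P4 gave the most calls. Here 5 genes rose and 2 fell (7 of 42, 16.7%, against 20.1% of all genes tested, 7.71% higher and 12.4% lower), and 20 of 42 had an unadjusted p below 0.05, against 41.4% of all genes. The genes that rose were PARP1, 1.81-fold, POLQ, 1.94-fold, NEIL3, a glycosylase that also unhooks crosslinks, RIF1, the effector of TP53BP1 at broken ends, and PRKDC. Those that fell were ERCC2 and XRCC1. End-joining genes supplied 3 of the 7, base excision genes 3 and nucleotide excision genes 1.

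PARP1 had 12.81 and 12.84 in controls A and B, against 11.97 in control P4 (0.85 ± 0.13, adjusted p = 0.0258, limma). POLQ had 10.73 and 10.78, against 9.80 in control P4 (0.96 ± 0.23, adjusted p = 0.0487). Control P4 was the lowest of the 6 libraries for both genes. NEIL3 had 8.85 and 8.92 in controls A and B, against 8.18 in control P4 (0.70 ± 0.15, adjusted p = 0.0413). RIF1 had 13.13 and 13.18, against 12.64 (0.51 ± 0.09, adjusted p = 0.0281), and PRKDC had 15.27 and 15.32, against 14.68 (0.61 ± 0.11, adjusted p = 0.0328). For NEIL3, RIF1 and PRKDC as well, the other 5 libraries all lay above control P4. XRCC1 had 9.58 and 9.48 in controls A and B, against 10.02 in control P4 (-0.49 ± 0.10, adjusted p = 0.0358), and ERCC2 had 9.54 and 9.67, against 10.21 (-0.60 ± 0.11, adjusted p = 0.0321). Both were higher in control P4 than in any of the other 5 libraries.

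**Figure D4:**
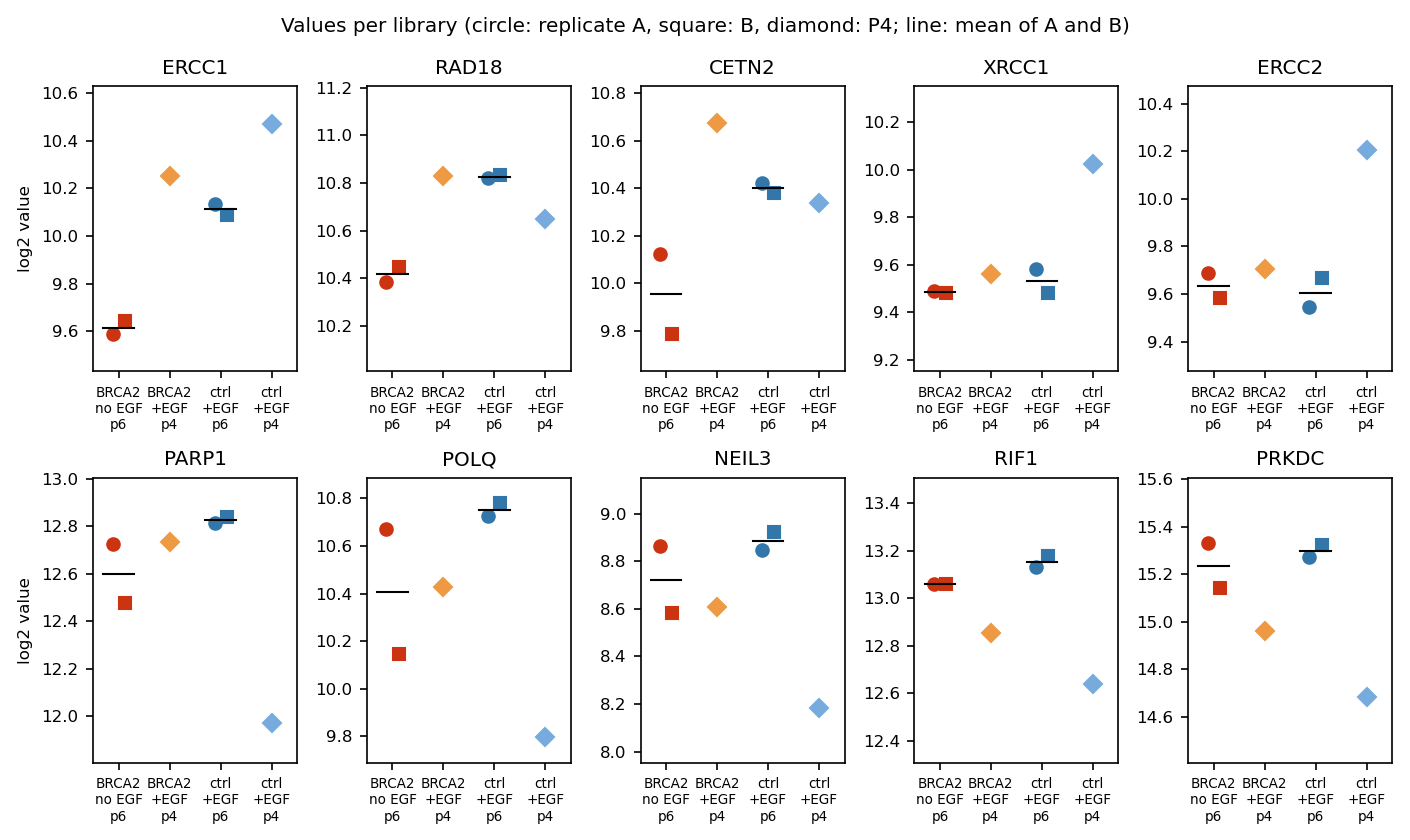
Log2 values per library of the 10 repair genes that passed in at least 1 comparison (all panels have the same height on the log2 scale, lines are means of replicates A and B). ERCC1 and RAD18 are lowest in the BRCA2-labelled libraries without EGF, XRCC1 and ERCC2 stand out high in control P4 (10.02 and 10.21), and PARP1, POLQ, NEIL3, RIF1 and PRKDC are lowest there.

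Among the genes that did not pass, MSH6 (12.54 and 12.59 in controls A and B, against 11.87 in control P4) and UNG (9.52 and 9.59, against 8.87) had the largest differences, 0.69 each, with adjusted p of 0.146 and 0.102 (limma). The ERCC1 difference was -0.36 (adjusted p = 0.0520) and that of PMS2 -0.33 (adjusted p = 0.0614). In the same comparison 15 of 22 proliferation genes rose and 0 fell, with a median difference of 1.04 and a median level of 11.85 and 11.88 in controls A and B, against 10.95 in control P4. Their part in the repair genes was not tested. All 7 calls were lost with no filter on low values (adjusted p between 0.0701 and 0.138), with controls A and B averaged (0.195 to 0.279), without control A (0.176 to 0.240) or without control B (0.206 to 0.319), and those of XRCC1 (0.0613), ERCC2 (0.0560) and POLQ (0.0530) also with quantile normalisation. A single library stands for passage 4, and its label was not borne out by BRCA2, so passage and anything else particular to that library cannot be told apart.

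A further 54 genes of the same pathways were read from a list, and 53 passed the filter. At passage 6, without EGF against the controls, 0 of 53 passed, against 6.44% of all genes tested. Of the 53, 12 lay above and 41 below 0 (median -0.13), whereas 52.7% of all genes tested lay below 0 (median -0.02). Between the BRCA2-labelled libraries without and with EGF 2 of 53 fell and 0 rose, against 8.89% lower and 7.41% higher among all genes tested. They were MNAT1 (-0.59 ± 0.11, adjusted p = 0.0364, limma), a subunit of the kinase module of the repair factor TFIIH, and UBE2A (-0.49 ± 0.09, adjusted p = 0.0350), the ubiquitin-conjugating partner of RAD18. UBE2A had 10.20 and 10.26 without EGF, against 10.72 in the BRCA2-labelled library with EGF. Between passage 6 and passage 4 controls 2 of 53 rose and 6 fell, against 7.71% higher and 12.4% lower among all genes tested. Those that rose were EXO1 (1.28), the exonuclease of mismatch repair, and POLD1 (0.71), the catalytic subunit of polymerase delta. Among those that fell were CDK7 (-0.74) and GTF2H1 (-0.55) of nucleotide excision repair, MPG (-0.54), the alkyladenine glycosylase, MAD2L2 (-0.62), a subunit of polymerase zeta and of shieldin, and SHLD2 (-0.41) of shieldin, with adjusted p between 0.0231 and 0.0457 over all 8. Unlike the calls described above, those of these further genes were not followed under other settings, such as no filter on low values or averaged controls.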

How the data were processed

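The authors deposited 1 table of normalised log2 values, 57820 Ensembl gene rows by 6 libraries, made from messenger RNA with TopHat2 2.0.11, DESeq2 and the build hg19, per the submitters' processing notes. The read counter, annotation and transformation were not given in the sources used here. Depth is unknown, so the precision set by depth could not be computed. Each column's sample was read from its name in the labels.

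Symbols came from Ensembl identifiers (89.9% of rows, 96.4% of tested genes). The 14763 genes whose back-transformed values averaged at least 10 entered 1 limma fit (limma 3.58.1, R 4.3.3, trend and robust prior, two-sided, Benjamini-Hochberg) with 4 levels (siRNA by medium by passage) and 2 degrees of freedom for the residual, so single libraries take their spread from the passage 6 pairs. The procedure was tested on simulated data with the same spread in every library. The passage 6 pairs differ in spread, so that test cannot show how the calls behave under unequal spread. The SDs given are those of A minus B over tested genes, and standard errors are limma's. The labels call A and B biological replicates without saying that they were separate cultures, so the p-values cover only the spread among these libraries, possibly technical.

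The members, lists, tests and naming rule (members past the threshold or among the 3 smallest p of a comparison, and the largest passage 6 difference of each pathway) were chosen with earlier results of these data known. NEIL2, LIG4, REV3L, PMS2 and other members outside that rule were named after their values were seen. Alternatives changed the filter, a pseudocount of 16, the scaling, the passage term, the prior, the treatment of controls A and B and the libraries. Promoters are RefSeq's (GRCh38.p14), and no coordinate was converted to hg19. The values of 1 further pathway gene are not reported here.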

Additional observations from a re-analysis of the deposited data

How the results depend on the processing

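Under the settings above 2, 0, 3 and 7 repair genes passed at passage 6, at passage 4, between media and between control passages. With no filter on low values the counts were 0, 0, 0 and 0, and with controls A and B averaged also 0 in each (limma; 11, 12, 10 and 19 members, and 1, 2, 2 and 6, at an unadjusted p below 0.05), while the genes called at passage 6 went to 76 and 46 of all tested, against 950. With passage left out of the model the counts at passage 6, at passage 4 and between media were 0, 0 and 0 (4, 0 and 4 unadjusted), with 146 genes called in the first. At passage 6 the count was 1 with median centring, 1 with quantile normalisation and 1 with no trend and no robust prior, in each case ERCC1, and between media it was 1 under the same settings, again ERCC1. With a replicate block on the letter A or B it was 1 at passage 6 (ERCC1), 0 at passage 4 and 0 between media (4 unadjusted). Between control passages it was 7, where RIF1 (adjusted p = 0.0636, limma) and XRCC1 (0.0784) were lost and MSH6 and UNG gained. A minus B of the passage 6 groups correlated at -0.17 over genes, and whether the letters mark a shared batch was not tested. With crossed letters, an alternative chosen after seeing the data, the block gave 2, 0, 2 and 10. Leaving out 1 library at a time, counts ran from 0 to 22 at passage 6, 0 to 28 at passage 4, 0 to 26 between media and 0 to 30 between control passages. They were 0 without control A or control B, where the remaining spread is that of the pair without EGF, and highest without a replicate of that pair, where it is that of the 2 close controls. Counts stayed within 1.5 times the reported ones with a mean of at least 50, a pseudocount of 16, passage 6 libraries only and without either passage 4 library. Over 19 named differences and 287 alternative values none changed sign, 199 stayed on the same side of the threshold, 74 lost it and 14 gained it. All 74 losses fell on the 12 calls among these differences, and the 199 include differences without a call that stayed without one. PARP1 between control passages lost its call in 4 of 14 alternatives, and RAD18 between media in 10 of 15. With the depth unknown, the counting error of low rows such as MLH3 could not be given, and no value with passage left out exists for the control passages.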
